A study of Mus musculus with 6 samples.

Results

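The galectin family was examined in a mouse line of pancreatic ductal adenocarcinoma (KPC), in which Brca2 was silenced by a short hairpin RNA (shBrca2, 3 libraries) or which carried a non-targeting hairpin (shControl, 3 libraries). The family was set by gene symbol as the galectins Lgals1, Lgals2, Lgals3, Lgals4, Lgals8 and Lgals9 and the galectin-3 binding protein Lgals3bp. Of these 7 genes, 6 were among the 10616 genes of the count table, and Lgals4 was not analysed here. The family was selected on the counts of Lgals2 in these 6 libraries, which were high and higher in shBrca2, so the difference in Lgals2 is given as a description, with no test.

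Both groups were made by lentiviral infection with a pLKO.1 vector and puromycin selection, so vector and selection were shared. Cultured cells negative for propidium iodide were sorted, and poly(A) RNA was turned into 3' end libraries by a variation of MARS-seq. The labels list a single shBrca2 group, so an effect of the hairpin and an effect of Brca2 loss cannot be told apart. The study describes the libraries as cultured cells and counts the 3 of each group as mice, while the labels do not say what a replicate was, so the p-values measure only the spread between these libraries. Total counts ranged from 1519340 to 2452467 per library. Brca2 itself had raw counts of 10, 11 and 14 under shBrca2 and of 33, 52 and 33 under shControl. Its log2 fold change was -1.61 ± 0.44 (SE, adjusted p = 0.029, DESeq2 likelihood ratio test). It was not called without shBrca2 replicate 2 (adjusted p = 0.152), shBrca2 replicate 3 (0.233) or shControl replicate 2 (0.371, all DESeq2). Brca2 also had no adjusted p, so no call, with TMM size factors or a filter of at least 10 counts in 3 libraries. The first principal component of log2(normalized count + 1) held 41.1% of the variance. On it the shBrca2 libraries lay at -21.4, 1.25 and -22.0 and the shControl libraries at -9.41, 13.6 and 38.0. The groups thus overlapped, though shBrca2 tended lower, and shControl replicate 3 lay farthest from the other libraries. All 8 ductal carcinoma markers examined were in the table, with Krt18, Krt19 and Krt8 at base means of 9184, 4227 and 2909 normalized counts and Epcam at only 6.5. Of 8 fibroblast, 10 leukocyte and 5 endothelial markers, 2, 1 and 0 were in the table. Those 3 were Col1a2, Thy1 and Cd68. The fibroblast markers summed to 8.56 to 10.9 CPM (counts scaled to the library total) in shBrca2 and 6.85 to 20.03 in shControl, and Cd68 stood at 5.94 to 9.87 and 5.24 to 8.32, while Ptprc, Col1a1 and Pecam1 were not among the genes of the table.

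Galectins are lectins that bind beta-galactosides on glycoproteins through a conserved carbohydrate recognition domain. They are made without a signal peptide, act in the cytosol and nucleus, and also leave the cell to bind and crosslink surface glycoproteins. Galectin-1 and galectin-2 are prototype galectins with a single domain that form dimers, galectin-3 is a chimera type with a long N-terminal tail, and galectin-8 and galectin-9 are tandem repeat types with a pair of domains in the same chain. In the pancreas, galectin-1 is known from activated stellate cells and galectin-3 from the carcinoma cells, while galectin-2 is known mainly from epithelia of the gut.

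The 6 genes lie on 4 chromosomes of the mouse build used for the counts (mm10, GRCm38.p6 in RefSeq), and all are protein coding. Lgals2 (ENSMUSG00000043501, chromosome 15, 78850860 to 78855529, minus strand) and Lgals1 (ENSMUSG00000068220, chromosome 15, 78926725 to 78930465, plus strand) are separated by 71.2 kb. Lgals3 (ENSMUSG00000050335) lies on chromosome 14 (47373860 to 47386167, plus strand), and Lgals8 (ENSMUSG00000057554) on chromosome 13 (12439402 to 12464977, minus strand). Lgals9 (ENSMUSG00000001123, 78962979 to 78984924, minus strand) and Lgals3bp (ENSMUSG00000033880, 118392747 to 118401959, minus strand) both lie on chromosome 11. Lgals1, Lgals2 and Lgals8 overlap a gene on the opposite strand (Gm30368, Cdc42ep1 and Heatr1), and as strand use in counting was not stated, their counts are uncertain to that extent.

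To show where the RNAs start, the 250 bases upstream of the RefSeq start site are given for 3 members, 5' to 3' on the gene's own strand. Lgals2 is shown as the member that chose the family, Lgals3 as the member with the next largest difference, and Lgals9 because galectin-9 is known as an interferon-induced galectin. Capitals mark matches on either strand to 7 short motifs, none of which overlapped another in these windows. The Lgals2 window (chr15:78855530-78855779, minus strand) and the Lgals9 window (chr11:78984925-78985174, minus strand) are read from the reverse strand, and that of Lgals3 (chr14:47373610-47373859) from the plus strand, all from RefSeq on GRCm38.p6.
Lgals2: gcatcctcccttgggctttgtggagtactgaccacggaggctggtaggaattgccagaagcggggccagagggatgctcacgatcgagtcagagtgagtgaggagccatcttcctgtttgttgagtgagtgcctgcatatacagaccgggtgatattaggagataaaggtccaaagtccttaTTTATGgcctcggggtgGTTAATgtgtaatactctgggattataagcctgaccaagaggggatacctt
Lgals3: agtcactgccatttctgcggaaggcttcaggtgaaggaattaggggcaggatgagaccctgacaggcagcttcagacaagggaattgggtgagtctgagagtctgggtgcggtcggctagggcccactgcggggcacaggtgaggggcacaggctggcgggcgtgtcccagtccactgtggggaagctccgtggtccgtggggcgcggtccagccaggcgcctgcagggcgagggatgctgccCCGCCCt
Lgals9: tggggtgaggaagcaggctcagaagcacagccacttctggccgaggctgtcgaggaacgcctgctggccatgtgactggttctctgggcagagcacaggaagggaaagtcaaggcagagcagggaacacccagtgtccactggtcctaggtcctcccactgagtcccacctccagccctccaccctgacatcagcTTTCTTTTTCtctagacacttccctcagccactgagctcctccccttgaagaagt
The motifs searched were the TATA box core (TATAAA), the GC box (GGGCGG), the core of the interferon-stimulated response element, the STAT core (TTCNNNGAA), an HNF1 motif (GTTAAT), the AP-1 site (TGACTCA) and a CDX core (TTTATG). The Lgals2 window held the CDX core at -68 and the HNF1 motif at -51 from the start site, motifs found in 10.8% and 6.43% of 32851 windows of the same length. The Lgals3 window held a GC box at -7, found in 32.7% of windows, and the Lgals9 window held the interferon-stimulated response element core at -55, found in 2.98%. The GC content of the windows was 50.8% for Lgals2, 66.0% for Lgals3 and 58.4% for Lgals9, beside a median of 52.4% over all windows. A match describes the letters only.

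The family was first described by its levels, as normalized counts (counts divided by the library's size factor). Each transcript is counted at its 3' end, so levels were not divided by length, and how well each 3' end was captured is not known. Lgals3, at a base mean (the mean over 6 libraries) of 4748, and Lgals1, at 4052, were the most abundant members, at ranks 43 and 52 of the 10616 genes. Their ranges overlapped, and Lgals3 exceeded Lgals1 in 4 of 6 libraries, so their order was within the spread. Lgals2 followed at 1894, then Lgals3bp at 912, Lgals9 at 554 and Lgals8 at 60.4, and from Lgals1 downwards each member's 6 libraries lay above those of the next. Of the other galectin genes looked up (Lgals6, Lgals7, Lgals12, Lgalsl and Grifin), only Lgalsl, which encodes a galectin-related protein, was in the table, with a base mean of 91.3. It therefore lay between Lgals9 and Lgals8, without overlap with either. Counts of the 6 family genes, Lgals3bp included, thus came mainly from Lgals3 and Lgals1. Together these took 73.4 ± 2.04% of the family's counts in shControl and 70.7 ± 2.51% in shBrca2 (SD, n = 3).

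Lgals2, the epithelial prototype galectin, held 2399, 2394 and 2429 normalized counts in shBrca2 and 1344, 1348 and 1449 in shControl. The groups were far apart and the libraries of each group lay close together. Its mean was 2407 ± 18.6 against 1380 ± 59.2 (SD, n = 3). This was a 1.74-fold difference (95% interval 1.47 to 2.07), or 0.80 ± 0.13 (SE) as a log2 fold change. The coefficient of variation was 0.775% in shBrca2 and 4.29% in shControl, whereas counting alone gives about 2.30% at its base mean. Its level, which was part of the choice, placed it at rank 4 by base mean among the 127 genes called between the groups. In CPM, which uses no size factor, Lgals2 stood at 1159, 1155 and 1183 in shBrca2 and at 634, 656 and 717 in shControl. When each library was left out in turn, the log2 fold change of Lgals2 stayed between 0.78 and 0.84.

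Lgals3 encodes galectin-3, the chimera galectin that crosslinks glycoproteins at the surface and moves into the nucleus. It held 6011, 5420 and 4834 normalized counts in shBrca2 and 4353, 3806 and 4067 in shControl. Every shBrca2 library lay above every shControl library, but the shBrca2 libraries spread widely. The log2 fold change was 0.41 ± 0.14 (SE), with a 95% interval from 0.14 to 0.68, and the adjusted p was 0.161 (DESeq2 likelihood ratio test). It did not pass the thresholds, which for a called gene were a base mean above 5, a log2 fold change beyond 0.5 in either direction and an adjusted p below 0.1. Without shBrca2 replicate 3 the adjusted p of Lgals3 was 0.0447, with a log2 fold change of 0.49, and without shControl replicate 2 it was 0.70, with 0.36.

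Lgals8, a tandem repeat galectin that binds glycans exposed on damaged endosomes and lysosomes, was the least abundant member. Its normalized counts were 64.0, 70.0 and 69.6 in shBrca2 and 52.5, 51.2 and 55.4 in shControl. The groups did not overlap, yet the raw counts were only 47 to 80 per library. The log2 fold change was 0.36 ± 0.28 (SE), the 95% interval ran from -0.18 to 0.90 and the adjusted p was 0.83 (DESeq2 likelihood ratio test), so the interval holds both 0 and the 0.80 of Lgals2, and a difference was not detectable at this depth.

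Lgals1 encodes galectin-1, the prototype galectin known for effects on T cells and stroma. It held 4050, 4898 and 3565 normalized counts in shBrca2 and 4503, 4311 and 2985 in shControl. The groups overlapped, with the lowest value in shControl replicate 3. The log2 fold change was 0.08 ± 0.18 (SE), with a 95% interval from -0.26 to 0.43 and an adjusted p of 0.966 (DESeq2 likelihood ratio test). Its chromosomal neighbour Lgals2 stood at 0.80 (95% interval 0.55 to 1.05). As Lgals2 was chosen for its rise, nothing is read from the difference between these genes. Without shControl replicate 3 the log2 fold change of Lgals1 was -0.08.

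Lgals9 encodes galectin-9, a tandem repeat galectin that binds the checkpoint receptor TIM-3. Its normalized counts were 610, 600.3 and 540 in shBrca2 and 498, 473 and 600.2 in shControl. Only shControl replicate 3 reached the shBrca2 range. The log2 fold change was 0.16 ± 0.16 (SE), with a 95% interval from -0.16 to 0.47 and an adjusted p of 0.892 (DESeq2 likelihood ratio test), and without shControl replicate 3 it was 0.26.

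Lgals3bp encodes a secreted, heavily glycosylated protein that binds galectin-3. Its normalized counts were 711, 1055 and 941 in shBrca2 and 1035, 980 and 750.5 in shControl. The groups overlapped, with a low library in each. The log2 fold change was -0.03 ± 0.18 (SE), with a 95% interval from -0.38 to 0.33 and an adjusted p of 0.989 (DESeq2 likelihood ratio test). Lgalsl overlapped between the groups too, with a log2 fold change of 0.21 ± 0.25 (SE, adjusted p = 0.916, DESeq2 likelihood ratio test). The coefficient of variation of Lgals3bp was 19.4% in shBrca2 and 16.4% in shControl, and that of Lgals1 was 16.2% and 21.0%, the widest spreads of the 6 members in both groups.

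**Figure D1:**
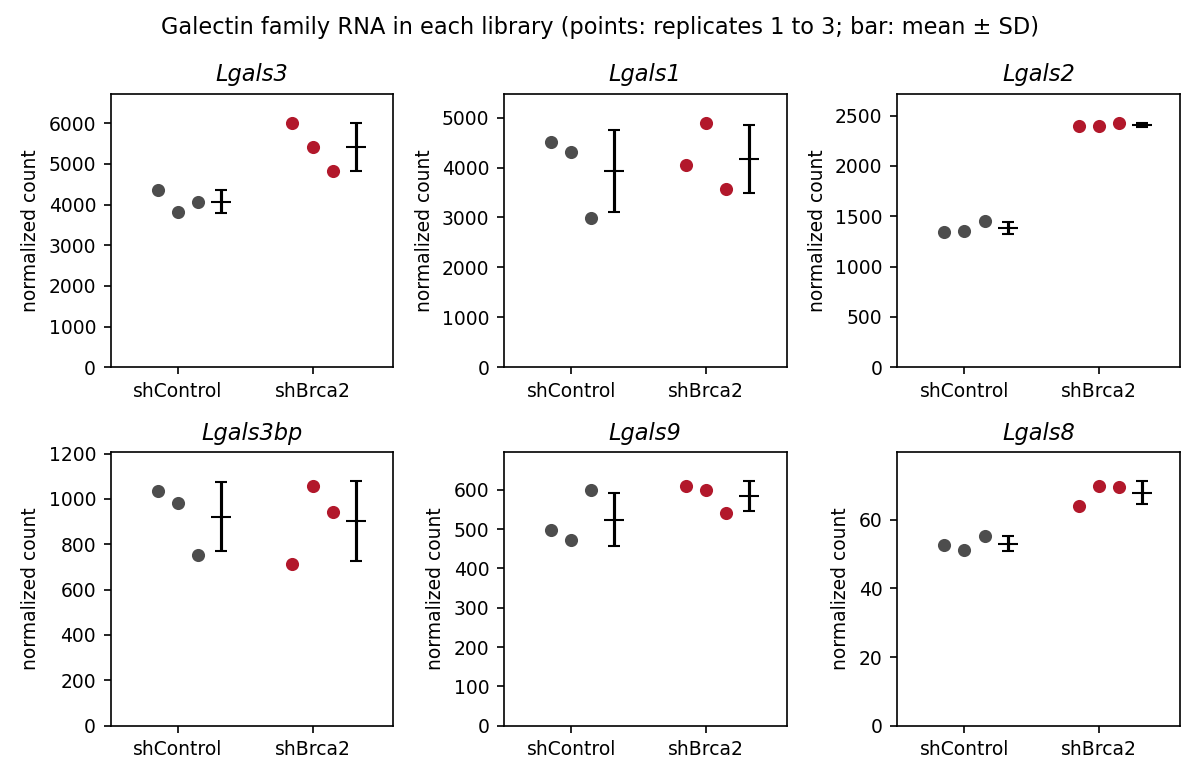
Normalized counts (y axis, from 0, own scale for each gene) of the 6 family genes in the shControl (grey) and shBrca2 (red) libraries, with the mean ± SD beside the 3 points of each group. The groups are apart for Lgals2, Lgals3 and Lgals8 and overlap for Lgals1, Lgals9 and Lgals3bp.

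Across the family, 1 of 6 genes was called, Lgals2, beside 1.27% of all 9997 genes tested. As Lgals2 was chosen for this, nothing is read from that count, nor from any count that includes it. Among the 5 others, 0 were called by the DESeq2 likelihood ratio test and 0 by the edgeR quasi-likelihood test, and 1, Lgals3, had an unadjusted p under 0.05. Groups that did not overlap, with shBrca2 higher, were found for 3 of the 6 (Lgals2, Lgals3 and Lgals8), beside 10.2% of all genes tested, and with shBrca2 lower for 0, beside 10.4% (20.6% in either direction). Without Lgals2, 2 of 5 were apart with shBrca2 higher. The median log2 fold change of those 5 was 0.16, with 4 above 0, beside -0.00094 over all genes tested.

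**Figure D2:**
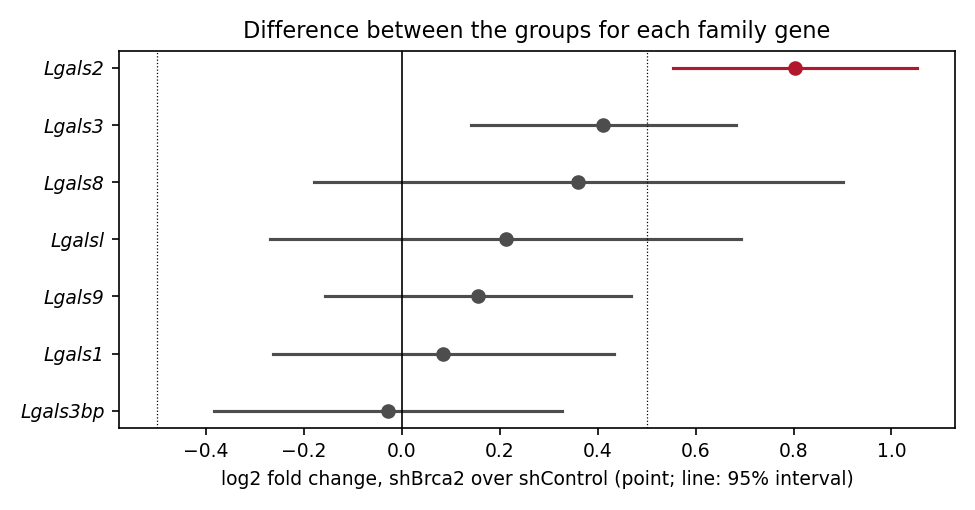
Log2 fold change of shBrca2 over shControl (x axis) for the 6 family genes and Lgalsl, with points for the estimate, lines for the 95% interval and dotted lines at the threshold of 0.5. Lgals2 (red), which chose the family, is at 0.80, and the interval of Lgals3 runs from 0.14 to 0.68.

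As ratios between genes of a library do not depend on scaling between libraries, the members were also set against each other. Shares of all counts, given first, do depend on the library total. The 6 genes together took 0.669%, 0.696% and 0.603% of all counts in shBrca2 and 0.556%, 0.533% and 0.490% in shControl. Every shBrca2 share lay above every shControl share. As Lgals2 was chosen for its rise, nothing is read from shares or ratios that include it. Without Lgals2, the other 5 took 0.540 ± 0.0494% and 0.460 ± 0.0377% (SD, n = 3), and the groups overlapped. Of the family's counts, Lgals2 made up 17.8 ± 1.58% under shBrca2 and 12.8 ± 1.66% under shControl (SD, n = 3). There were 0.399, 0.442 and 0.502 Lgals2 counts per Lgals3 count in shBrca2 and 0.309, 0.354 and 0.356 in shControl, without overlap. Relative to Lgals1, the values were 0.592, 0.489 and 0.681 in shBrca2 and 0.298, 0.313 and 0.485 in shControl. The highest of these shControl values, in replicate 3, nearly reached the lowest of shBrca2, which goes with the low Lgals1 count of that library. Lgals3 per Lgals1 overlapped between the groups, at 1.32 ± 0.192 and 1.07 ± 0.256 (SD, n = 3). Lgals3bp per Lgals3 overlapped too, at 0.169 ± 0.0441 in shBrca2 and 0.227 ± 0.0378 in shControl (SD, n = 3). Lgals9 per Lgals3 did not overlap, at 0.108 ± 0.00565 in shBrca2 and 0.129 ± 0.0170 in shControl (SD, n = 3).

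**Figure D3:**
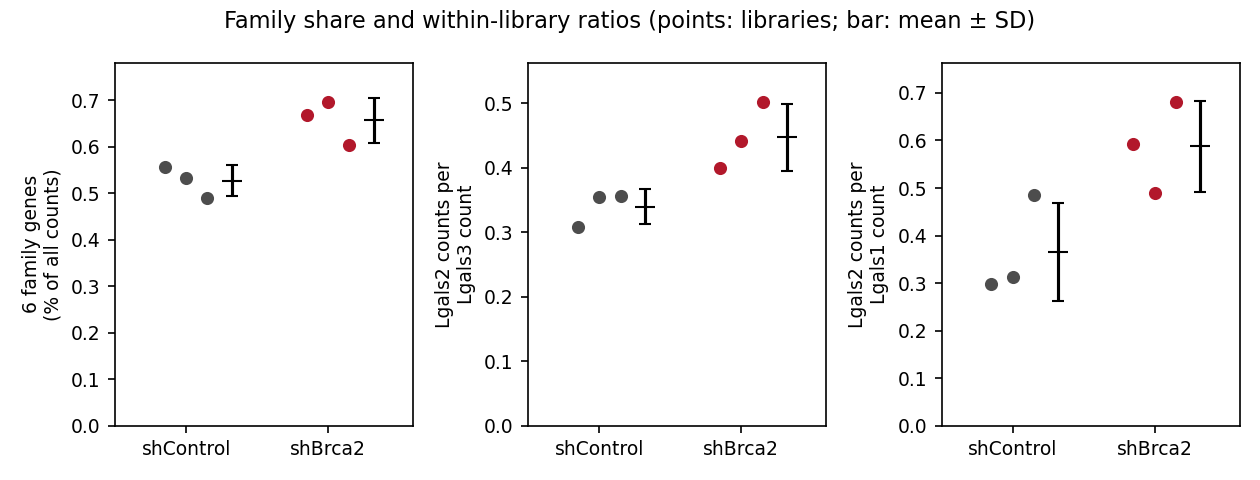
Share of the 6 family genes in all counts (left, %), Lgals2 counts per Lgals3 count (middle) and per Lgals1 count (right) in each library, with the mean ± SD of each group of 3. The shBrca2 libraries (red) lie above the shControl libraries (grey) in all 3 panels, narrowly so against Lgals1 (0.489 against 0.485). All 3 quantities include Lgals2, which was chosen for its rise, so nothing is read from this.

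To see whether the difference in Lgals2 was shared along the chromosome, the genes whose lower coordinate lay within 200 kb of its own were examined. RefSeq lists 23 and the table held 10, Lgals1 among them. Of these 10, 0 were called by DESeq2, beside 1.27% of all genes tested, 0 by edgeR, and 0 had an unadjusted p under 0.05, as did 866 of all 9997. With so few genes, counts of 0 say little. Their log2 fold changes ran from -0.79 (Sh3bp1, at a base mean of 16.8) to 0.08 (Lgals1), with a median of -0.29 and 3 of 10 above 0. Cdc42ep1, which encodes a binding partner of the small GTPase Cdc42, lies on the opposite strand and shares 43 bases with Lgals2 at the 3' ends of both genes. Its mean normalized count was 83.2 ± 23.0 under shBrca2 and 99.9 ± 4.0 under shControl (SD, n = 3), and the part of reads shared between both genes was not tested.

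**Figure D4:**
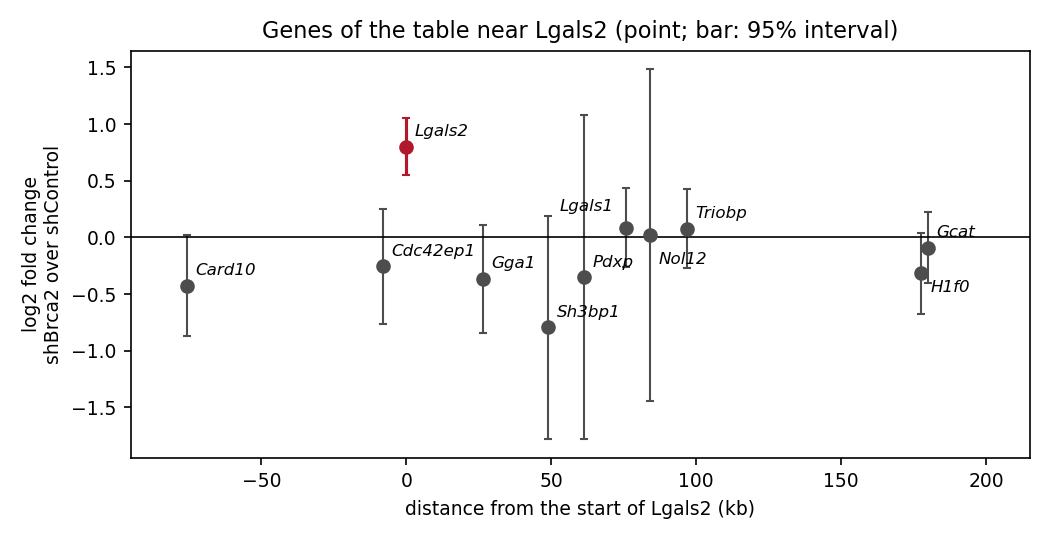
Log2 fold change of shBrca2 over shControl (y axis, bars for the 95% interval) of Lgals2 (red) and of the 10 genes of the table that start within 200 kb of it, by distance from the start of Lgals2 in kb (x axis). The neighbours lie between -0.79 and 0.08, and Lgals2, which was chosen for its rise, at 0.80.

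The genes whose pattern over the 6 libraries was most like that of a member were listed by Pearson's r of log2(normalized count + 1), among 3774 genes with a base mean of at least 100. The libraries share their group and size factor, so these r are a description. For Lgals2 they were Lamp2 (r = 0.996), Igfbp5 (0.995) and Slc25a4 (0.991), with log2 fold changes of 0.90, 2.51 and 0.35. Lamp2 encodes a lysosomal membrane glycoprotein, Igfbp5 an insulin-like growth factor binding protein and Slc25a4 a mitochondrial ADP/ATP carrier. For Lgals3 they were Arl3 (0.968), Trim26 (0.962) and Anxa7 (0.957), and for Lgals9 Cenph (0.953), Wsb2 (0.945) and Ndufs4 (0.939). For Lgals1 they were Stard10 (0.990), Csnk2b (0.955) and Cited2 (0.955), and for Lgals3bp Srpk1 (0.986), Keap1 (0.950) and Rpl7a (0.943). The genes most like Lgals1 and Lgals3bp had log2 fold changes between -0.09 and 0.07.

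The glycoproteins that galectins bind were taken next, as a list of 24 surface, lysosomal and matrix proteins. This list and those below were drawn up with earlier results of these data known, so counts of called genes in them are a description only. Of 20 tested, 1 was called higher in shBrca2 and 3 lower, beside 0.77% and 0.5% of all genes tested, and the median log2 fold change was 0.02. Lamp2, a carrier of poly-N-acetyllactosamine chains bound by galectins, rose to 166, 158 and 168 normalized counts in shBrca2 from 82.9, 83.9 and 96.9 in shControl. Its log2 fold change was 0.90 ± 0.21 (SE, adjusted p = 0.00646, DESeq2 likelihood ratio test), and it kept its call when any library was left out. Its paralog Lamp1, at a base mean of 2081, had a log2 fold change of 0.05, with a 95% interval from -0.24 to 0.33. The 3 that fell were Fn1 (log2 fold change -0.89), Hspg2 (-1.14) and Itga3 (-0.57), which encode fibronectin, the basement membrane proteoglycan perlecan and the integrin alpha 3 chain. Itga3 held 580, 389 and 449 normalized counts in shBrca2 and 655, 709 and 739 in shControl (adjusted p = 0.0827, DESeq2 likelihood ratio test). Hspg2 held 55.8, 65.2 and 42.6 in shBrca2 and 83.9, 148 and 127 in shControl (adjusted p = 0.0136, DESeq2 likelihood ratio test). Neither Itga3 nor Hspg2 was called without shBrca2 replicate 3 or without shControl replicate 2, when 2 of the list, Lamp2 and Fn1, were called. Hspg2 was also not called without shBrca2 replicate 1, and Itga3 not without shBrca2 replicate 2, without shControl replicate 3 or by edgeR. The tetraspanins Cd9 and Cd63, at base means of 2162 and 1089, had log2 fold changes of 0.16 and 0.34 and were not called.

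The enzymes and sugar transporters that build or modify galectin-binding glycans formed a list of 27 genes, of which 26 were tested. Only Gcnt3 was called, higher in shBrca2, beside 0.77% of all genes tested. The median log2 fold change was 0.10, with 15 above 0 and 11 below. C1galt1c1, at a base mean of 37.7, had the largest log2 fold change of the list, 1.33 ± 0.44 (SE). It was not called (adjusted p = 0.153, DESeq2 likelihood ratio test). Gcnt3, the mucin-type enzyme that branches O-glycans into core structures on which galactose chains are extended, held 178, 167 and 188 normalized counts in shBrca2 and 100.03, 106 and 105 in shControl. Its log2 fold change was 0.78 ± 0.20 (SE, adjusted p = 0.0207, DESeq2 likelihood ratio test), and the call was lost without shBrca2 replicate 3 and without shControl replicate 2. St6gal1, which adds the alpha-2,6 sialic acid that hinders binding of galectin-1, was the most abundant of the list, at a log2 fold change of -0.18 with a 95% interval from -0.50 to 0.14. Mgat4b, an N-glycan branching enzyme, had a log2 fold change of 0.14, and Mgat3, which adds the bisecting GlcNAc that hinders further branching, 0.33, and neither was called.

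Galectin-8, galectin-3 and galectin-9 are known to recruit autophagy and signalling proteins to damaged lysosomes, and 20 genes of a list of 22 such partners were tested. By DESeq2 0 were called, beside 1.27% of all genes tested, by edgeR 0, and 2 had an unadjusted p under 0.05, as did 866 of all 9997. The median log2 fold change was 0.07, with 15 above 0 and 5 below. Sqstm1, the autophagy receptor p62, had 1050 ± 105 normalized counts under shBrca2 and 825 ± 60.4 under shControl (SD, n = 3). Its log2 fold change was 0.35 (adjusted p = 0.41, DESeq2 likelihood ratio test). Gabarap and Map1lc3b, which coat autophagosomes, had log2 fold changes of 0.03 and 0.20. Without shControl replicate 3, 1 gene of the list, Tfrc, was called.

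As Lgals9 and Lgals3bp are known as interferon-induced genes, 24 interferon response genes were looked up. The table held 10 and 9 were tested. By DESeq2 0 were called, beside 1.27% of all genes tested, and by edgeR 0. An unadjusted p under 0.05 was found for 0 of the 9, beside 866 of all 9997. With so few genes, counts of 0 say little. The median log2 fold change was -0.24 and 1 of 9 lay above 0. Bst2, which tethers enveloped virus particles, had a log2 fold change of -0.38, Samhd1, a dNTP hydrolase, also -0.38, and Ifi27 -0.005.

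Lgals2 is known from gut epithelium, and 24 further gut epithelial genes were therefore set beside it. Of 19 tested, 3 were called higher in shBrca2 and 0 lower, beside 0.77% and 0.5% of all genes tested. An unadjusted p under 0.05 was found for 7, beside 866 of all 9997. The list was drawn up with earlier results of these data known, so these counts are a description only. By quasi-likelihood test edgeR called the same 3, Vil1, Anxa13 and Fabp1. Anxa13 held 361, 396 and 493 normalized counts in shBrca2 and 151, 177 and 171 in shControl. Its log2 fold change was 1.33 ± 0.19 (SE, adjusted p = 4.5e-09, DESeq2 likelihood ratio test), and it kept its call under every alternative. Fabp1, at a base mean of only 10.4, gave way to Cdh17 among the 3 called genes under TMM factors, total counts as size factors or a stricter count filter, and of the 6 fits that left out a library it was called only in the one without shControl replicate 1. Vil1, which encodes the microvillus protein villin, held 271, 245 and 201 normalized counts in shBrca2 and 148, 135 and 104 in shControl, a log2 fold change of 0.89 ± 0.21 (SE, adjusted p = 0.00693, DESeq2 likelihood ratio test). Without shBrca2 replicate 1, and without shControl replicate 3, Anxa13 alone was called. The list as a whole did not share a direction: its median log2 fold change was 0.18, with 11 above 0 and 8 below. The trefoil factor Tff1, the most abundant of the list at a base mean of 9457, had a log2 fold change of -0.37 (adjusted p = 0.307), Cdh17, an intestinal cadherin, 0.61 (adjusted p = 0.129), and the transcription factor Hnf4a 0.33 (adjusted p = 0.422, all by the DESeq2 likelihood ratio test). Of the 8 ductal markers, 2 were called higher, Krt7 and Sox9 (log2 fold changes 1.21 and 1.20), beside 0.77% of all genes tested. The median of the 8 was -0.09, with 3 above 0 and 5 below. Krt8, Krt18 and Krt19, at -0.17, -0.12 and -0.06, were not called.

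**Figure D5:**
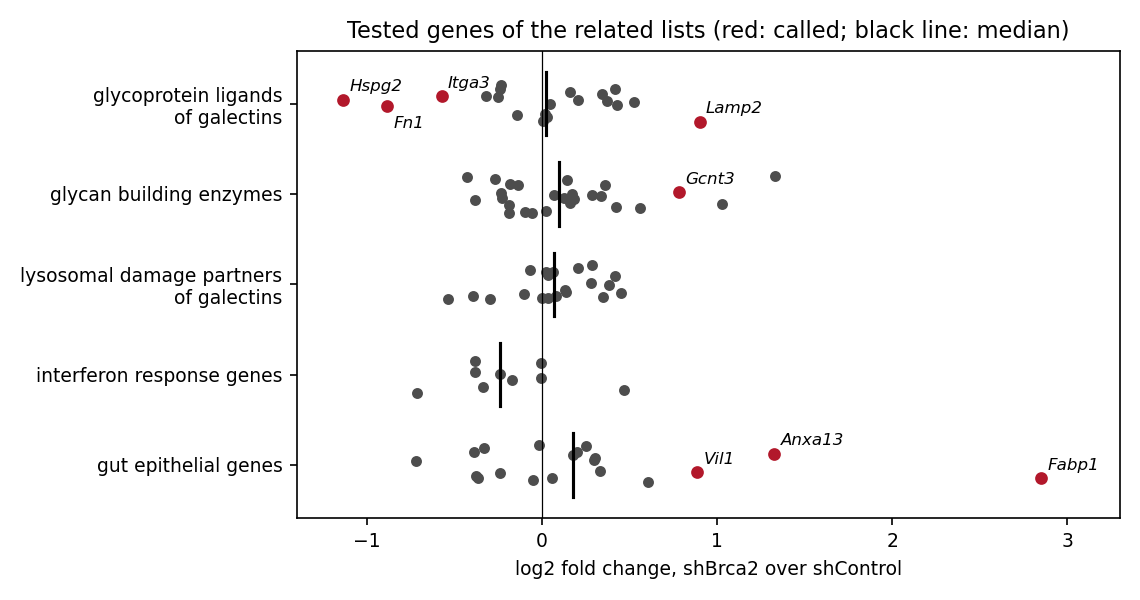
Log2 fold change of shBrca2 over shControl (x axis) for every tested gene of the 5 related lists, with called genes in red and named and a black line at each list's median. Called genes are 4 of the 20 glycoprotein ligands, 1 of the 26 glycan enzymes, 0 of the 20 lysosomal partners, 0 of the 9 interferon genes and 3 of the 19 gut epithelial genes.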

How the data were processed

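The authors deposited a table of raw counts by gene symbol, with a column for each library and no normalization or pooling. Per the labels, the assay was 3' end sequencing after a modified MARS-seq preparation. The submitters' processing notes name bcl2fastq, cutadapt, STAR 2.4.2a, HTSeq, DESeq2 and the build mm10. The annotation, the strand setting and the use of molecular identifiers were not given in the sources used here, so counts may be of reads or of molecules. Groups followed the source name in the labels.

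All 10616 genes were fitted with DESeq2 1.42.0 in R 4.3.3 (median-of-ratios size factors, likelihood ratio test of group, fold changes not shrunken), with the test and thresholds of the study's methods. Those methods also describe a batch correction, but whether it covers these libraries is not clear, the labels give no batch, and no batch term was fitted. P-values were Benjamini-Hochberg adjusted over 9997 genes, and 619 had no adjusted p. Intervals are 95% Wald intervals. Positions and upstream windows came from RefSeq (GRCm38.p6), overlaps from GENCODE vM39 by name only. Neither need be the annotation behind the counts. Of 6 members, 5 matched the table of windows. No pair of libraries within a group agreed within counting noise (chi-square per degree of freedom at least 4.65). The family, the lists and the tests were chosen with earlier results of these data known. Text names all members, called genes of each list with its 3 most abundant others, genes near Lgals2 and the 3 genes most like each member with a base mean of at least 100. The ratios and shares within a library, and C1galt1c1, Tfrc, Epcam, Ptprc, Col1a1 and Pecam1, were chosen after their values were seen. The fit was tested on simulated data. Alternatives were the Wald test, the quasi-likelihood test of edgeR 4.0.16, other size factors, filters and thresholds, and each library left out.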

Additional observations from a re-analysis of the deposited data

How the results depend on the processing

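Of the 5 members other than Lgals2, 0 were called under the 14 alternatives, 8 with every library and 6 that left out a library. The number of genes called ranged from 94 to 131 with every library and from 47 to 140 with a library left out (47, 55 and 81 when shBrca2 replicate 3, shControl replicate 2 or shBrca2 replicate 1 was dropped). With a library left out, the called glycoprotein ligands numbered 2 to 4, the glycan enzymes 0 to 1 (C1galt1c1 in place of Gcnt3 without shControl replicate 2), the lysosomal partners 0 to 1 and the gut epithelial genes 1 to 4. In these fits Brca2 lay between -1.70 and -1.46 (log2), with its call lost in 3. Directions turned only for members near 0 and only with a library left out: Lgals1, ranging from -0.08 to 0.19 (-0.05 without shBrca2 replicate 2 and -0.082 without shControl replicate 3), and Lgals3bp, ranging from -0.16 to 0.11 (0.11 when shBrca2 replicate 1 was dropped, 0.06 for shControl replicate 1 and 0.02 for shControl replicate 2). The cause was not tested. With every library kept, the all-gene median stayed within 0.1 (log2) of its value under every scaling. Median-of-ratios and TMM factors hold that median near 0 by design, so nothing is read from this. No paired analysis was possible because replicates carry no numbers in the labels that tie a shBrca2 to a shControl library. Low counts limit Lgals8, and intervals cover these libraries only.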
